A study of Mus musculus with 8 samples.

Results

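Transcripts of the mTOR complexes were examined in mouse liver, with attention to Rictor, the gene targeted in the animals, and to the other subunits of the kinase complexes that share mTOR. The 9 genes were Rictor, Mtor, Rptor, Mlst8, Mapkap1, Prr5, Prr5l, Deptor and Akt1s1, chosen by name, out of 19938 genes that had a probe set of their own on the array. All 9 were found, on 10 of 35556 probe sets. Each gene was represented by its brightest probe set, and only Akt1s1 had another one.

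mTOR is a serine/threonine kinase that works in a pair of complexes. In mTOR complex 1 (mTORC1) it is joined by raptor, the product of Rptor, and drives protein synthesis and growth in response to amino acids and insulin. In mTOR complex 2 (mTORC2) it is joined by rictor and by Sin1, the product of Mapkap1, and phosphorylates Akt and other kinases of the AGC family, through which insulin acts on hepatic glucose and lipid metabolism. mLST8 and the inhibitor DEPTOR belong to both complexes, PRAS40 (Akt1s1) to mTORC1, and the Protor proteins (Prr5 and Prr5l) to mTORC2.

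RNA came from whole livers of 8 adult male mice that had gone 16 h without food and then fed freely for 3 h, a time at which insulin normally rises. The 4 controls were labelled wild type, and whether they carried a floxed allele or Cre is not stated in the labels. The 4 mice of the other group were labelled Rictor floxed (RKO), and the series title names Albumin-Cre with Rictor LoxP/LoxP. The albumin promoter confines Cre largely to hepatocytes, and which other liver cells keep the gene was not examined. The strain is not stated, and each mouse gave 1 array. The groups are called control and knockout-labelled below. Levels are given as log2 RMA values, differences are knockout-labelled minus control on that scale, and limma p-values carry a Benjamini-Hochberg adjustment over 23410 probe sets, with 0.05 as the threshold.

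The markers of hepatocytes matched the tissue label. The mean over 7 of 7 hepatocyte markers, among them Alb, lay between 13.77 and 13.83 on control arrays and between 13.80 and 13.82 on knockout-labelled arrays. The array medians ran from 6.90 to 7.03, with the lowest on knockout-labelled array 1 and the others at 6.97 or above. The arrays numbered 1 stood apart from their groups. Along the leading principal component (35.5% of the variance) the scores were -15.6 to -12.9 for controls 2 to 4 and 18.4 to 20.4 for knockout-labelled arrays 2 to 4. Knockout-labelled array 1 scored -12.9, among the controls, and control 1 scored -2.19. Results that rest on these arrays are given below with and without them.

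Across all probe sets tested, 0 passed the threshold (0%; limma, smallest adjusted p 0.0993), and 0 of the 9 genes did. Without adjustment 2595 probe sets had a limma p under 0.05, or 11.1%, of which 1141 (4.87%) were higher and 1454 (6.21%) lower in the knockout-labelled group; with the arrays shifted to a common median the split was 1296 higher and 906 lower. Among the 9 genes 2 had such a p, Mlst8 and Prr5l, both lower. The median difference over the 9 genes was 0.033, and over all probe sets tested it was -0.017. The groups overlapped in all 9 genes, while 4.72% of all probe sets had groups that did not overlap.

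**Figure D1:**
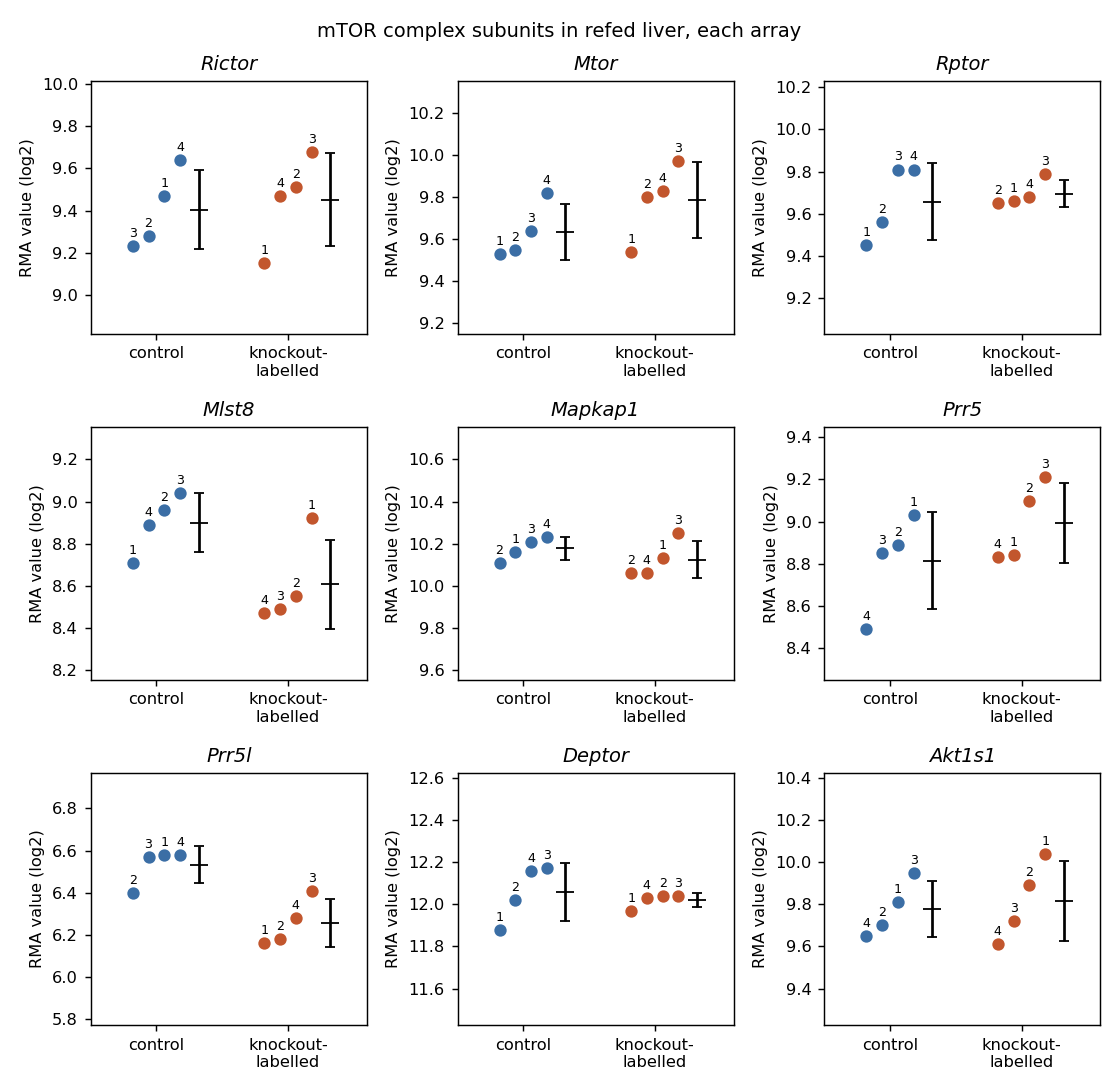
Values of the 9 mTOR complex genes, 1 panel per gene, on the vertical axis as RMA values (log2), with every vertical axis spanning the same log2 range. Points are single arrays marked with their replicate number (blue, control; orange, knockout-labelled), ordered by value within a group, and black bars give the group mean and SD (n = 4). In Mlst8 knockout-labelled arrays 2 to 4 sit below every control and array 1 sits at 8.92, among the controls.

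The Rictor signal was present at similar levels in both groups. Rictor is the scaffold that defines mTORC2 and recruits its substrates. The 4 control arrays read 9.47, 9.28, 9.23 and 9.64, and the knockout-labelled arrays 9.15, 9.51, 9.68 and 9.47. The lowest and the highest of the 8 values therefore both came from knockout-labelled arrays, and the groups overlapped across nearly their whole range. The control mean was 9.40 ± 0.19 (SD, n = 4) and the knockout-labelled mean 9.45 ± 0.22 (SD, n = 4), a difference of 0.045 (SE 0.13; limma adjusted p = 0.936; exact two-sided permutation p = 0.829). The 95% interval of the difference, from -0.24 to 0.33, corresponds to a ratio between 0.849 and 1.25, and so leaves out a 2-fold fall in the signal of this probe set. The sign turned with single arrays: the difference was -0.030 without knockout-labelled array 3 and 0.15 without knockout-labelled array 1.

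The genotype labels cannot be checked with this probe set. It summarises probes spread along the transcript, and which of its probes lie inside the deleted exons was not examined here. Liver cells without Cre keep intact Rictor, and fewer cells of a type and less RNA per cell cannot be told apart in whole liver. The mean over 6 of 6 Kupffer cell markers averaged 9.31 ± 0.34 (SD, n = 4) over controls against 9.46 ± 0.50 (SD, n = 4) in the other group, where knockout-labelled array 4 was highest at 10.13. The mean over 6 of 6 endothelial markers lay between 10.25 and 10.58 in controls and between 10.29 and 10.61 on knockout-labelled arrays, and that over 6 of 6 stellate cell markers between 9.24 and 9.58 and between 9.31 and 9.47. The part of these cells in the Rictor signal was not tested.

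Of the other subunits found in mTORC2 alone, Prr5l was lower on most knockout-labelled arrays without passing the threshold. Prr5l encodes Protor-2, a rictor-binding protein that is not needed for assembly of the complex. It read 6.58, 6.40, 6.57 and 6.58 in controls and 6.16, 6.18, 6.41 and 6.28 in the knockout-labelled group. All but 1 of the knockout-labelled arrays lay below every control, and the exception, array 3 at 6.41, exceeded control 2 at 6.40 by a margin that is small beside the SDs of 0.087 and 0.12. The difference was -0.27 (SE 0.081; limma adjusted p = 0.242; exact two-sided permutation p = 0.0571, where 4 arrays against 4 can give no p below 0.0286). The direction held in all 16 alternatives run for Prr5l, with adjusted p from 0.150 to 0.505. It did not rest on the arrays numbered 1, since the difference was -0.22 without both. Prr5l was the 1 gene of the 9 dimmer than the median probe set: only 39.1% of probe sets were dimmer, and RMA compresses differences in that range.

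Prr5, which encodes the paralogous Protor-1, had a higher mean in the knockout-labelled group and also did not pass. Its values were 9.03, 8.89, 8.85 and 8.49 in controls and 8.84, 9.10, 9.21 and 8.83 on knockout-labelled arrays. Control 4 was the lowest of all and knockout-labelled arrays 2 and 3 the highest, with the remaining arrays mixed. The difference was 0.18 (SE 0.13; limma adjusted p = 0.653), and it shrank to 0.075 without control 4 and to 0.11 when knockout-labelled array 3 was dropped. Dropping the pair of arrays numbered 1 raised it to 0.31 (limma adjusted p = 0.209). The Protor genes thus had means that differed in opposite directions, and neither difference passed; the contrast between them was not tested.

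Mapkap1 encodes Sin1, the subunit that presents substrates to mTORC2. It had the smallest spread of the 9 genes, with a within-group SD of 0.074 against a median of 0.13 over all probe sets tested. Controls read 10.16, 10.11, 10.21 and 10.23, and knockout-labelled arrays 10.13, 10.06, 10.25 and 10.06. The groups overlapped and differed by -0.053 (SE 0.086; limma adjusted p = 0.877), with a 95% interval from -0.24 to 0.13. Leaving out 1 knockout-labelled array moved it to between -0.094, without array 3, and -0.031, without array 2.

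Among the subunits common to both complexes, Mlst8 was lower on 3 of the 4 knockout-labelled arrays. Mlst8 encodes the WD-repeat protein that binds and stabilises the kinase domain of mTOR, and it is required for mTORC2. Its values were 8.71, 8.96, 9.04 and 8.89 in controls. Knockout-labelled arrays 2 to 4 read 8.55, 8.49 and 8.47, below every control, whereas array 1 read 8.92, inside the control range. With all arrays the means were 8.90 ± 0.14 (SD, n = 4) and 8.61 ± 0.21 (SD, n = 4), a difference of -0.29 (SE 0.12; 95% interval from -0.55 to -0.033), or a ratio of 0.816. This did not pass (limma adjusted p = 0.390; exact two-sided permutation p = 0.0857). The unadjusted limma p of 0.0305 did not stay under 0.05 in every alternative. It was 0.0587 with the arrays shifted to a common median and 0.0608 with a replicate block. With single arrays left out, the unadjusted limma p was under 0.05 only without control 1 (0.0138) or knockout-labelled array 1 (0.00202). Without any other single array it ran from 0.0502, without control 4, to 0.0881, without knockout-labelled array 4.

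The call for Mlst8 depended on knockout-labelled array 1. Without that array the difference was -0.40 and passed narrowly (limma adjusted p = 0.0470), in a fit in which 4.50% of all probe sets passed and 2.90% passed as lower. Without both arrays numbered 1 the means were 8.97 ± 0.075 (SD, n = 3) and 8.50 ± 0.046 (SD, n = 3), and the difference was -0.46 (limma adjusted p = 0.0114), in a fit in which 7.85% of probe sets passed. The groups did not then overlap in Mlst8, and 14.7% of all probe sets were likewise lower without overlap. Leaving out arrays that lie toward the other group is not a test of the gene. With array weights Mlst8 did not pass (-0.38; limma adjusted p = 0.0557), in a fit in which 3.95% of probe sets did, and over its 17 alternatives the adjusted p ran from 0.0114 to 0.757. None of the other 8 genes passed in any alternative run.

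The mean of 1 marker list, that of cholangiocytes, followed the same split of arrays as Mlst8, and those of erythroid cells and lymphocytes did in part. The mean over 4 of 5 cholangiocyte markers was 7.40, 7.37 and 7.36 on knockout-labelled arrays 2 to 4 and 7.82 on array 1, against 7.46 to 7.90 in controls; Epcam, the cholangiocyte adhesion molecule, read 6.21, 6.31 and 6.06 on those arrays, 7.03 on array 1 and 6.72 to 7.07 in controls. Sox9 was also lower (-0.44; limma adjusted p = 0.551), while the keratins Krt7 and Krt19 differed by 0.11 and 0.017. The mean over 2 of 4 erythroid markers was 8.56, 8.55 and 8.65 on knockout-labelled arrays 2 to 4, 8.96 on array 1 and 8.59 to 8.99 in controls, so that this split was incomplete. Of these 2 markers Alas2 differed by -0.36 and Slc4a1 by 0.0095. The mean over 5 of 6 lymphocyte markers was 6.17, 6.16 and 6.27 on knockout-labelled arrays 2 to 4, 6.45 on array 1 and 6.25 to 6.64 in controls. RMA values have no true zero, so none of these markers can be read as absent. The part of these cells in the Mlst8 difference was not tested.

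Mtor itself, the kinase of both complexes, had a slightly higher mean in the knockout-labelled group. It read 9.53, 9.55, 9.64 and 9.82 in controls and 9.54, 9.80, 9.97 and 9.83 on knockout-labelled arrays. Knockout-labelled arrays 1 and 2 lay inside the control range and arrays 3 and 4 above it, array 4 only just above control 4. The difference was 0.15 (SE 0.11; limma adjusted p = 0.672; 95% interval from -0.092 to 0.39), and 0.23 without knockout-labelled array 1 (limma adjusted p = 0.244). Leaving out knockout-labelled array 3 instead brought it to 0.089.

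Deptor, the inhibitor that binds mTOR in both complexes, had the brightest probe set of the 9 within its array, brighter than 96.6% of all probe sets, which is no measure of its abundance relative to the others. Controls read 11.88, 12.02, 12.17 and 12.16, and knockout-labelled arrays 11.97, 12.04, 12.04 and 12.03. Every knockout-labelled array lay inside the control range, and the difference was -0.041 (SE 0.079; limma adjusted p = 0.901; 95% interval from -0.21 to 0.13). Without control 3 it was -0.0032 and without control 1 -0.10.

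**Figure D2:**
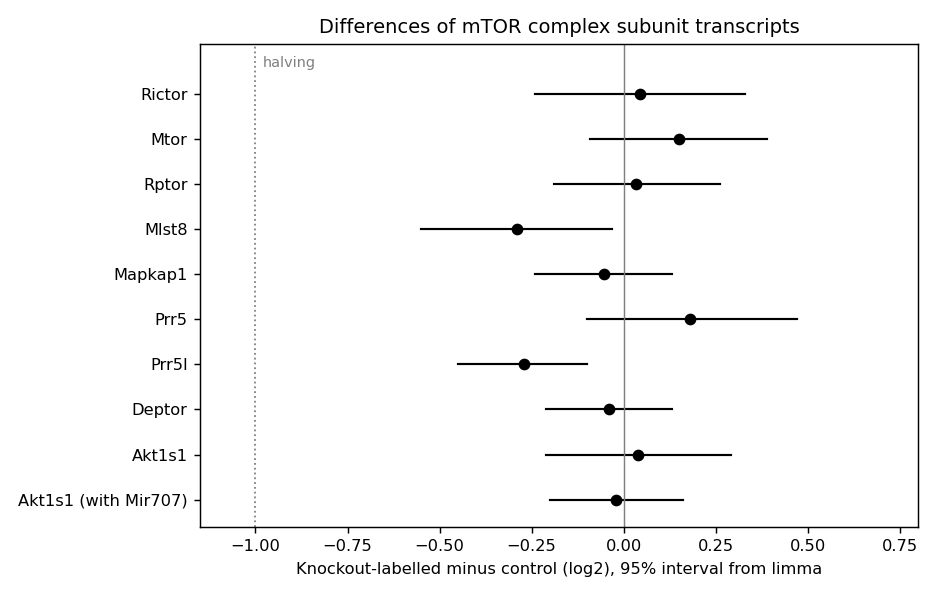
Difference between the groups for each of the 10 probe sets, as knockout-labelled minus control on the log2 scale (horizontal axis), with points for the estimate and lines for limma's 95% interval (n = 4 in each group). The dotted line marks a 2-fold fall, which none of the intervals reach, and the intervals of Mlst8 and Prr5l lie below 0 before adjustment.

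Neither gene specific to mTORC1 differed between the groups beyond the spread between arrays. Rptor encodes raptor, which recruits mTORC1 substrates. Its 4 control values were 9.45, 9.56, 9.81 and 9.81, and the knockout-labelled values 9.66, 9.65, 9.79 and 9.68. All knockout-labelled arrays lay within the control range. The difference was 0.033 (SE 0.10; limma adjusted p = 0.942; 95% interval from -0.19 to 0.26), and its sign turned without control 1 (-0.036).

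Akt1s1 encodes PRAS40, an Akt substrate that restrains mTORC1. Controls read 9.81, 9.70, 9.95 and 9.65, and knockout-labelled arrays 10.04, 9.89, 9.72 and 9.61. The highest and the lowest value both came from the knockout-labelled group, and the difference was 0.038 (SE 0.11; limma adjusted p = 0.939; 95% interval from -0.21 to 0.29). The sign was not settled, since it was -0.0068 with array weights and -0.037 without knockout-labelled array 1.

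The other Akt1s1 probe set is annotated to Akt1s1 and to the microRNA gene Mir707 together, so its signal cannot be assigned to 1 of them. The mature microRNA is shown because it is the other product that the annotation gives for this probe set. Its sequence is from RefSeq (GRCm38.p6), 5′ to 3′, with the seed (bases 2 to 8) in capitals.
mmu-miR-707: cAGUCAUGccgcuugccuacg
This probe set read 7.48, 7.46, 7.67 and 7.56 in controls and 7.46, 7.47, 7.53 and 7.63 on knockout-labelled arrays. The groups overlapped almost completely, with a difference of -0.021 (SE 0.082; limma adjusted p = 0.956). The probe sets of Akt1s1 therefore differed in sign, with both intervals spanning 0.

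The 9 genes did not move as a unit from array to array. Knockout-labelled array 3 was the highest of its group in 6 of them (Rictor, Mtor, Rptor, Mapkap1, Prr5 and Prr5l). Over all probe sets tested it lay outside the range of its group, in either direction, in 40.5%. Control 4 was the highest of its group in 5 (Rictor, Mtor, Rptor, Mapkap1 and Prr5l) and the lowest in 2 (Prr5 and Akt1s1). Over all probe sets tested it lay outside the range of its group in 51.3%. The gaps between these counts and shares were not tested. Knockout-labelled array 1 lay outside the range of the other knockout-labelled arrays in 6 of the 9 genes, below it in Rictor, Mtor, Prr5l and Deptor and above it in Mlst8 and Akt1s1. Over all probe sets tested that array lay outside the range of its group in 62.6%, so the share among the 9 genes was close to that of the table. The within-group SD ran from 0.074 in Mapkap1 to 0.21 in Prr5 and was 0.20 in Rictor.

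**Figure D3:**
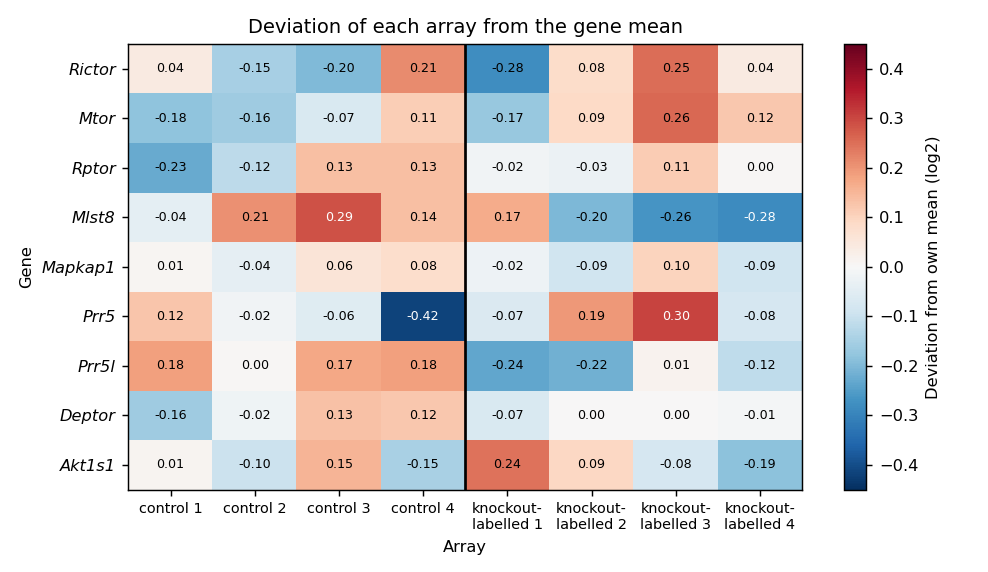
Deviation of each array (columns) from the mean of the gene over the 8 arrays (rows), in log2 units, printed in each cell and coloured from blue (below the mean) to red (above it); the black line separates control from knockout-labelled arrays. Among knockout-labelled arrays, Rictor and Mtor are lowest on array 1 and highest on array 3, and Mtor is similarly low on controls 1 and 2. Mlst8 has its lowest values on knockout-labelled arrays 2 to 4.

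Of the other subunits, Mtor followed Rictor most closely. Likeness was measured as the root mean square difference between the values of 2 genes over the 8 arrays, each gene centred on its own mean, so that a smaller value is a closer pattern. It was 0.11 for Mtor, from 0.17 to 0.29 for the other subunits except Mlst8, and 0.36 for Mlst8. A gene with the same value on every array would score 0.18. Of the subunits only Mtor, and narrowly Mapkap1 at 0.17, were closer to Rictor than that. Of 18709 genes compared, 71 were closer to Rictor than Mtor was, and 17573 were closer than Mlst8. The 5 closest genes were Cdon at 0.061, Sox5 at 0.069, Rad50 at 0.073, Ankrd44 at 0.079 and Pou5f1 at 0.082. The probe sets of Cdon and Pou5f1 were dim, with only 17.8% and 23.6% of probe sets dimmer, a range in which RMA compresses differences. Cdon is a cell surface receptor, Sox5 and Pou5f1 are transcription factors, and Rad50 is a DNA repair protein. Rad50 read 7.97, 7.81, 7.82 and 8.19 in controls and 7.84, 8.11, 8.33 and 8.18 on knockout-labelled arrays. As in Rictor, control 4 was the highest control and knockout-labelled array 1 the lowest of its group. These genes were picked as the closest of many over 8 arrays, and their likeness is a description of these arrays.

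The 85 other genes of the pathway, in 5 lists, had a share of small p-values near that of the whole table. Of the 79 measured, 0 passed the threshold, and 11 had an unadjusted limma p under 0.05, 5 higher and 6 lower. That is 13.9%, near the 11.1% of all probe sets, and the median difference was -0.019. Genes named here beside the one with the smallest p in each list were picked after their values were seen.

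Among the 18 genes that carry signals to mTORC1 at the lysosome, all measured, 3 had an unadjusted limma p under 0.05, all of them higher, as were 4.87% of all probe sets: Rheb, Rraga and Rragb (0.22 for the last). Rheb is the GTPase that activates mTORC1, and Rraga and Rragb encode Rag GTPases that bring it to the lysosome. Rheb read 10.39, 10.09, 10.01 and 9.98 in controls and 10.38, 10.49, 10.92 and 10.81 on knockout-labelled arrays. The arrays numbered 1 were nearly equal, and the other knockout-labelled arrays lay above all controls. The difference was 0.54 (SE 0.14; limma adjusted p = 0.179), and Rheb passed under array weights (0.64; limma adjusted p = 0.0145) and when either array numbered 1 was left out, at 0.62 without the knockout-labelled one (limma adjusted p = 0.0216) and 0.63 without the control (limma adjusted p = 0.0493). Of all probe sets 1.09% passed without control 1. Rraga read 9.24, 9.21, 9.38 and 9.18 in controls and 9.62, 9.38, 9.61 and 9.50 on knockout-labelled arrays, so that the groups met at 9.38 in control 3 and knockout-labelled array 2 without overlap (0.28, SE 0.094; limma adjusted p = 0.297). Tsc1, a subunit of the TSC complex that inhibits Rheb, lay between 9.26 and 9.48 in controls and between 9.05 and 9.25 on knockout-labelled arrays, also without overlap (-0.16; limma adjusted p = 0.568). Tsc2, another subunit of that complex, differed by -0.0022 (limma adjusted p = 0.996), with groups that overlapped. Of all probe sets 4.72% had groups that did not overlap.

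Of 20 measured genes among 22 nutrient and stress sensors, Sesn2 was higher (0.33) and Prkaa1 lower at an unadjusted limma p under 0.05. Prkaa1 encodes a catalytic subunit of AMPK. It read 9.70, 9.78, 9.74 and 9.95 in controls and 9.77, 9.34, 9.57 and 9.51 on knockout-labelled arrays (-0.24, limma adjusted p = 0.426). As in Mlst8, array 1 alone of the knockout-labelled arrays lay in the control range. Of 9 measured assembly factors among 10, Hsp90aa1, a cytosolic chaperone, had the smallest p and a difference of 0.22 (limma adjusted p = 0.428), and its other probe sets gave 0.23 and 0.26.

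Of 14 measured mTORC1 substrates and effectors among 15, 9 had lower means, as had 13035 of the 23410 probe sets tested, and Rps6kb2 and Atg13 were lower at an unadjusted limma p under 0.05. Rps6kb2 encodes the ribosomal S6 kinase S6K2. It read 9.52, 9.65, 9.64 and 9.57 in controls and 9.37, 9.43, 9.26 and 9.31 on knockout-labelled arrays. The groups did not overlap in Rps6kb2, as in 4.72% of all probe sets. The difference was -0.26 (limma adjusted p = 0.299; exact two-sided permutation p = 0.0286, the smallest this design allows and the value any gene without overlap gets). Atg13, a subunit of the autophagy-initiating ULK1 complex, differed by -0.38 (limma adjusted p = 0.347) and passed with array weights (limma adjusted p = 0.0396). That fit gave knockout-labelled array 1 the lowest weight (0.471), and Atg13 read 11.93 there, inside the control range of 11.71 to 12.00.

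Of 18 measured genes among 20 in the list of mTORC2 substrates, their activators and phosphatases, 12 had lower means, and Akt2, Sgk1 and Sgk3 (-0.26 for the last) were lower at an unadjusted limma p under 0.05, as were 6.21% of all probe sets. Akt2 did not keep such a p when the arrays were shifted to a common median (-0.20; limma adjusted p = 0.621). Akt2 is the main Akt isoform of insulin action in liver, and the SGK kinases are activated by mTORC2 at the protein level. Akt2 read 11.75, 11.61, 11.64 and 11.50 in controls and 11.63, 11.33, 11.38 and 11.28 on knockout-labelled arrays, a difference of -0.22 (limma adjusted p = 0.420); its other probe set gave -0.13. Sgk1 read 8.72, 8.75, 8.68 and 8.60 in controls and 8.83, 8.25, 8.16 and 8.33 on knockout-labelled arrays. Knockout-labelled array 1 was the highest of all 8 and the other knockout-labelled arrays the lowest. The difference was -0.29 (limma adjusted p = 0.449) and passed without knockout-labelled array 1 (-0.44, limma adjusted p = 0.0192), as did 4.50% of all probe sets.

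**Figure D4:**
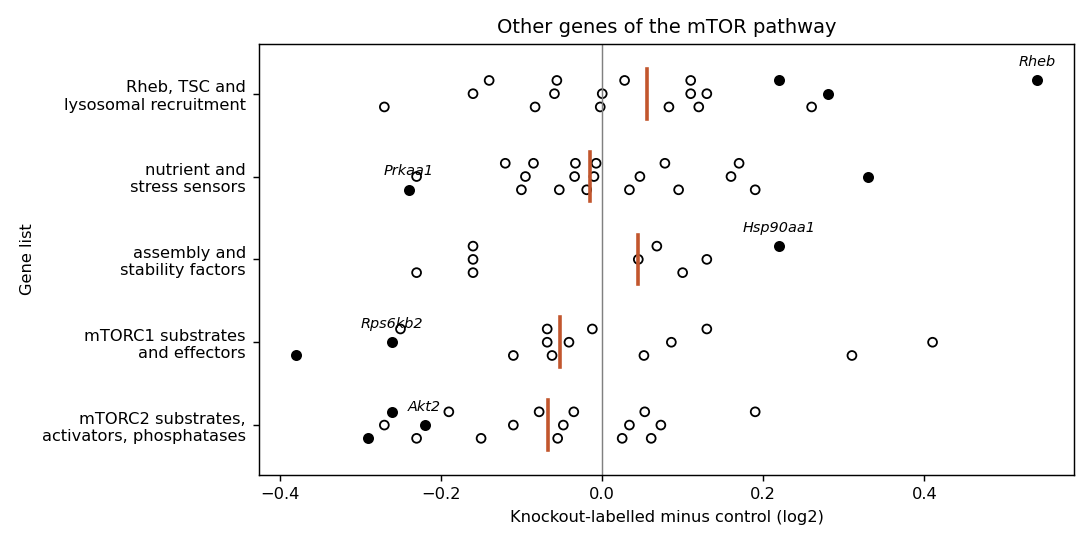
Differences between the groups, knockout-labelled minus control on the log2 scale (horizontal axis), for the 79 measured genes of 5 lists of the mTOR pathway (rows), 1 point per gene; filled points have an unadjusted limma p under 0.05 and orange bars mark list medians. Rheb lies furthest to the right, at 0.54, and none of the points passed the adjusted threshold.

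Among the subunits, the settings of the fit changed only the call for Mlst8. The differences of Mtor, Mlst8, Mapkap1, Prr5, Prr5l and Deptor kept their sign in every alternative that gave a value for them, and those of Rictor, Rptor and Akt1s1 turned in at least 1.

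**Figure D5:**
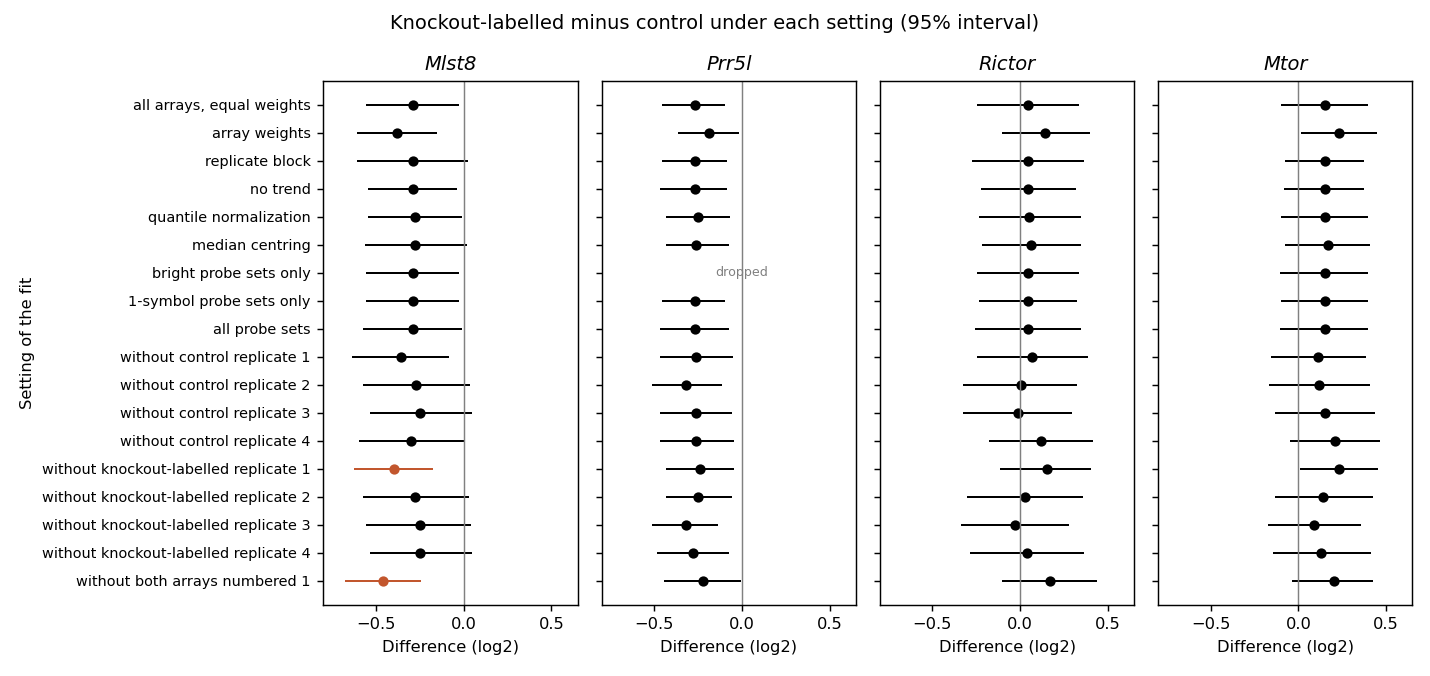
Difference between the groups, knockout-labelled minus control on the log2 scale (horizontal axis), for Mlst8, Prr5l, Rictor and Mtor under each setting of the fit (rows), with limma's 95% intervals; orange marks an adjusted p under 0.05. Only Mlst8 has orange points, when knockout-labelled array 1 (-0.40) or both arrays numbered 1 (-0.46) were left out, and Prr5l has no value among bright probe sets.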

How the data were processed

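Liver RNA from 8 mice (4 control, 4 knockout-labelled) was measured on 1 Affymetrix Mouse Gene 1.0 ST array each. The authors' deposited values are RMA values per probe set; per the submitters' processing notes, Affymetrix Expression Console, RMA and Partek were used, without versions, roles or order. They were taken as log2 values from their range, since the deposited table states no base. RMA makes array distributions alike, so a shift common to most transcripts is removed, and it compresses differences of dim probe sets. The number of arrays limits the precision.

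Symbols came from the platform annotation, updated by Entrez identifier against RefSeq (GRCm38.p6). Of 35556 probe sets, 21789 had 1 symbol, 1621 several and 12146 none in that annotation. No build is named for the probe sets, so no coordinates are printed. The 23410 probe sets with a symbol were fitted with limma 3.58.1 in R 4.3.3 (lmFit, eBayes with trend, equal weights, no covariate) and adjusted by Benjamini-Hochberg; single values were also compared by exact permutation. The fit was tested on simulated arrays with independent noise. Such data cannot show the effect of an array that lies toward the other group. Alternatives were array weights, a replicate block, no trend, quantile normalization, median centring, bright probe sets only (mean above the median of 6.98), other sets of probe sets, leaving out single arrays and, added later, leaving out both arrays numbered 1.

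The members, gene lists and the arrays to doubt were chosen with earlier results of these data known. Named genes were the members, the gene with the smallest p of each pathway list, and the 5 genes nearest to Rictor, leaving out predicted models. Pathway and marker genes were represented by their brightest probe set with 1 symbol. The most identical values shared by a pair of arrays was 18, so each array was counted as 1 sample.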

Additional observations from a re-analysis of the deposited data

Results flagged for a closer look

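An array far from the rest of its group, by Dixon's gap-to-range ratio with a critical value of 0.829, occurred in 2 of 30 groups checked over the 10 subunit probe sets and 5 named pathway genes; chance gives about 1 in 20. In Prr5l, control 2 at 6.40 lay below the other controls, with a ratio of 0.924. In Deptor, knockout-labelled array 1 at 11.97 lay below the rest of its group, with a ratio of 0.933, although the group's SD was only 0.033.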

How the results depend on the processing

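The differences of Mtor, Mapkap1, Prr5, Prr5l and Deptor kept their direction in every alternative that gave a value, and none passed the threshold in any. Prr5l was dropped among bright probe sets. With single arrays left out, the ranges were -0.030 to 0.15 for Rictor, -0.036 to 0.084 for Rptor, -0.40 to -0.25 for Mlst8, -0.037 to 0.11 for Akt1s1, -0.055 to 0.021 for its probe set shared with Mir707, -0.10 to 0.052 for Sox5 and -0.033 to 0.15 for Pou5f1. With array weights Akt1s1 gave -0.0068, its shared probe set 0.030 and Sox5 0.065. Without both arrays numbered 1, which was chosen after the data were seen, Rptor gave -0.024, Akt1s1 -0.027, Sox5 0.055 and Mlst8 -0.46. The other probe set of Akt1s1 gave -0.021. The cause of these changes was not tested.

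The number of probe sets past the threshold was 0 to 1053 with single arrays left out (255 without control 1, 1053 without knockout-labelled array 1), 924 with array weights and 1838 without both arrays numbered 1. The number of subunits was 0 to 1, and 1 without both. The number of the 79 pathway genes was 0 to 5, 2 with array weights and 10 without both.

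Same-numbered arrays had correlations of -0.079, -0.13, -0.0332 and 0.0784 between their deviations from the group means. Of 8 arrays, 2 correlated best with their own number. The labels do not say whether same-numbered arrays share a batch, and correlations over so few arrays cannot decide it. With the replicate block 0 probe sets passed, and Rictor gave 0.045, Mlst8 -0.29 and Prr5l -0.27 (limma adjusted p = 0.936, 0.468 and 0.316).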

Other observations

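Lpin1 and Tbc1d7, of the pathway lists, separated knockout-labelled arrays 2 to 4 from the remaining arrays, as did Mlst8, Prkaa1, Atg13 and Sgk1. The share of all probe sets with this split was not counted. Without knockout-labelled array 1, 4.50% of all probe sets passed, and without both arrays numbered 1, 7.85% did. Lpin1, Tbc1d7 and Pik3r1 were picked after their values were seen. Lpin1, a phosphatidate phosphatase and transcriptional coactivator regulated by mTORC1, read 9.84, 9.70, 10.18 and 9.86 in controls, 10.98, 10.41 and 10.71 on knockout-labelled arrays 2 to 4 and 9.12 on array 1, the lowest of all. With all arrays it differed by 0.41, and by 0.80 without knockout-labelled array 1 (limma adjusted p = 0.0126). Tbc1d7, the third subunit of the TSC complex, averaged 9.91 ± 0.055 across controls (SD, n = 4) and read 9.44, 9.51 and 9.32 on knockout-labelled arrays 2 to 4 and 10.33 on array 1, the highest of all. It differed by -0.27 with all arrays and by -0.49 without knockout-labelled array 1 (limma adjusted p = 0.0128). Pik3r1, the regulatory subunit of PI3-kinase, passed only without both arrays numbered 1, where it differed by -0.54 (limma adjusted p = 0.00942), against -0.23 with all arrays. The arrays left out were already known to stand apart from their groups, and the p-values without them do not test the genes.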
